A study of Mus musculus with 42 samples.

Results

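The apolipoprotein L genes measured in these spleens were 7 of 15277 genes: Apol7a, Apol7c, Apol8, Apol9a, Apol9b, Apol10a and Apol10b. They are the genes whose symbol begins with Apol and a digit and which have at least 1 array feature carrying that symbol alone, 8 of 30601 features in all. Apol10a had 2 features and each of the others had 1. The family was chosen by measured values, since Apol10a had among the largest log2 ratios over untreated at late times after CpG. The late levels of these genes are therefore a description, with no test against untreated.

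Female BALB/c mice received 400 µg of oligodeoxynucleotides (ODN) into the peritoneal cavity or were left untreated. The CpG mixture held ODN 1555 and 1466 and the control mixture held ODN 1612 and 1471. Spleens were taken from 6 untreated mice, from mice 3 h after control ODN, and from mice at 8 times after CpG, namely 3 h, 9 h, 24 h and 72 h and then days 5, 7, 9 and 14. Each treated group had 4 arrays, which the submitters describe as independent biological replicates. Control ODN was given at 3 h alone, so the later CpG groups have no control of their own time.

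Apolipoprotein L proteins are mostly intracellular proteins that associate with membranes and lipids. In humans, APOL1 also circulates on high-density lipoprotein and kills trypanosomes, and several family members are induced by interferon and other inflammatory signals in human cells. In mice, Apol9a and Apol9b are known as interferon-stimulated genes that restrict a picornavirus, and Apol7c acts in type 1 conventional dendritic cells, where it disrupts phagosome membranes during cross-presentation. CpG DNA engages TLR9 in the endosome and, through MyD88, starts cytokine and type I interferon production.

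All 7 genes lie in 1 cluster on chromosome 15 of GRCm38.p6, the build of the RefSeq gene table. The table lists 14 Apol genes, of which 13 are on that chromosome, and the 7 measured genes run in the order Apol7a, Apol9a, Apol10a, Apol7c, Apol10b, Apol9b and Apol8. The levels of the neighbouring Apol6, Apol7b, Apol11a, Apol11b, Apol10c-ps and Apol7e were not analysed here. Whether a feature of 1 gene also captures RNA of a close relative was not tested, and this applies most to Apol9a and Apol9b.

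RefSeq promoter windows of 300 bases, from 250 before to 50 after the start of the transcript, were found for all 7 genes. They are shown for Apol10a, with the largest late difference, and for the 3 genes that rose early, and each of these windows holds letters of an interferon response element. Capitals mark matches to the core of the interferon-stimulated response element, spelled here as GAAA, any 2 bases and GAAA, which reads TTTC, any 2 bases and TTTC when it lies on the other strand. In the Apol10a window they also mark a match to TTCNNNGAA, the gamma-activated site that STAT proteins are known to bind.
Apol10a promoter (chr15:77476797-77477096, plus strand): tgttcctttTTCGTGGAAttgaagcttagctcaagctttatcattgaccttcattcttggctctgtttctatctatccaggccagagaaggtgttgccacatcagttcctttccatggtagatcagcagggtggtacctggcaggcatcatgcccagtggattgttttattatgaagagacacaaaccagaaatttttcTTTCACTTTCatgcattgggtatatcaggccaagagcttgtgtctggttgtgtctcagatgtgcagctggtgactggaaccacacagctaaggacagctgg
Apol7c promoter (chr15:77533266-77533565, minus strand): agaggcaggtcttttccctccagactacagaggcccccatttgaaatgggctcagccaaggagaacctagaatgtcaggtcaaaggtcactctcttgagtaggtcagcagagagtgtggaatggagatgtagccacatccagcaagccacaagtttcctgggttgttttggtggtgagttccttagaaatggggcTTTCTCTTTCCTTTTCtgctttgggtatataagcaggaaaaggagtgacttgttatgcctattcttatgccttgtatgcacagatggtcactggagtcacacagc
Apol10b promoter (chr15:77596076-77596375, minus strand): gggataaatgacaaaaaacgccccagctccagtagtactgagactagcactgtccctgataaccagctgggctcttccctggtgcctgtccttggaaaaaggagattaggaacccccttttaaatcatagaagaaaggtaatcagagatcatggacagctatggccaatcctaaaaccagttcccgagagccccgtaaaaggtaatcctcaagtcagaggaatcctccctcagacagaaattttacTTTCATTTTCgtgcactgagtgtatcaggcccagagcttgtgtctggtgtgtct
Apol9b promoter (chr15:77728822-77729121, plus strand): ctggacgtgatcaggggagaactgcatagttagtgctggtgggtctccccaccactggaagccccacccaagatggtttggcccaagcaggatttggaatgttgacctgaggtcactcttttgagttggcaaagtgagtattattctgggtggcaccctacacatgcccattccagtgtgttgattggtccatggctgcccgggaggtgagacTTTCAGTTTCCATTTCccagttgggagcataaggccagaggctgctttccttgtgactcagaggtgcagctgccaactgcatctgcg

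The response element core was searched on both strands and was present in 3.44% of 32851 promoter windows of the same length. The gamma-activated site was present in 8.3% of them. The Apol10a window held the core at position -51 and the gamma-activated site at -241, counted from the transcript start. The Apol7c window held overlapping cores at -55 and -49, and the Apol10b window held 1 at -4. The Apol9b window held overlapping cores at -37 and -31, and a second annotated start of Apol9b moves them to -86 and -80. The Apol9a window carried the same stretch, at -59 and -53, and was identical to that of Apol9b over 278 aligned bases. Neither motif was found in the windows of Apol7a and Apol8. Among neighbours whose levels were not analysed, the windows of Apol11a, Apol11b and Apol7e held the core and that of Apol7b did not. Windows of the cluster resemble each other, as those of Apol10a and Apol11a do, with 90.2% identity over 295 aligned bases. The matches are therefore not independent of each other. All are matches of letters and do not show that a factor binds there.

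Each value is a log2 ratio of spleen cDNA, labelled with Cy5, over a universal mouse reference cDNA, labelled with Cy3. The base and the direction of the ratio were inferred: values ran from -6.86 to 9.78, and the spleen genes Cd79a and Hbb-b1 stood at 5.64 ± 0.55 and 6.83 ± 0.78 (SD, n = 6) in untreated spleens. Features without a value numbered 173 to 1740 per array, and 8 arrays had over 1000 such gaps. The experiment numbers in the titles fall into 10 runs of neighbouring numbers, 4 of them with 1 array. Control ODN 3 h, CpG 72 h, CpG 7 days and CpG 14 days lie in 1 run, with no untreated array. In whole spleen, fewer cells of a type and less RNA per cell cannot be told apart.

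The family split in time after CpG. Apol7c, Apol10b and Apol9b rose at 3 h, stayed raised at 9 h, and were each lower again at a later time. The early and late courses overlapped, since Apol9b had its highest mean at 72 h and Apol10b still lay wholly above untreated at 72 h and 5 days. Apol10a did not differ detectably from untreated through 24 h and was then 12.4-fold to 19.9-fold higher from 72 h to 9 days. Apol8 was highest at 5 and 7 days and Apol9a was nearly level until 7 days. The mean of Apol7a was below untreated from 24 h on, and also after control ODN at 3 h.

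**Figure D1:**
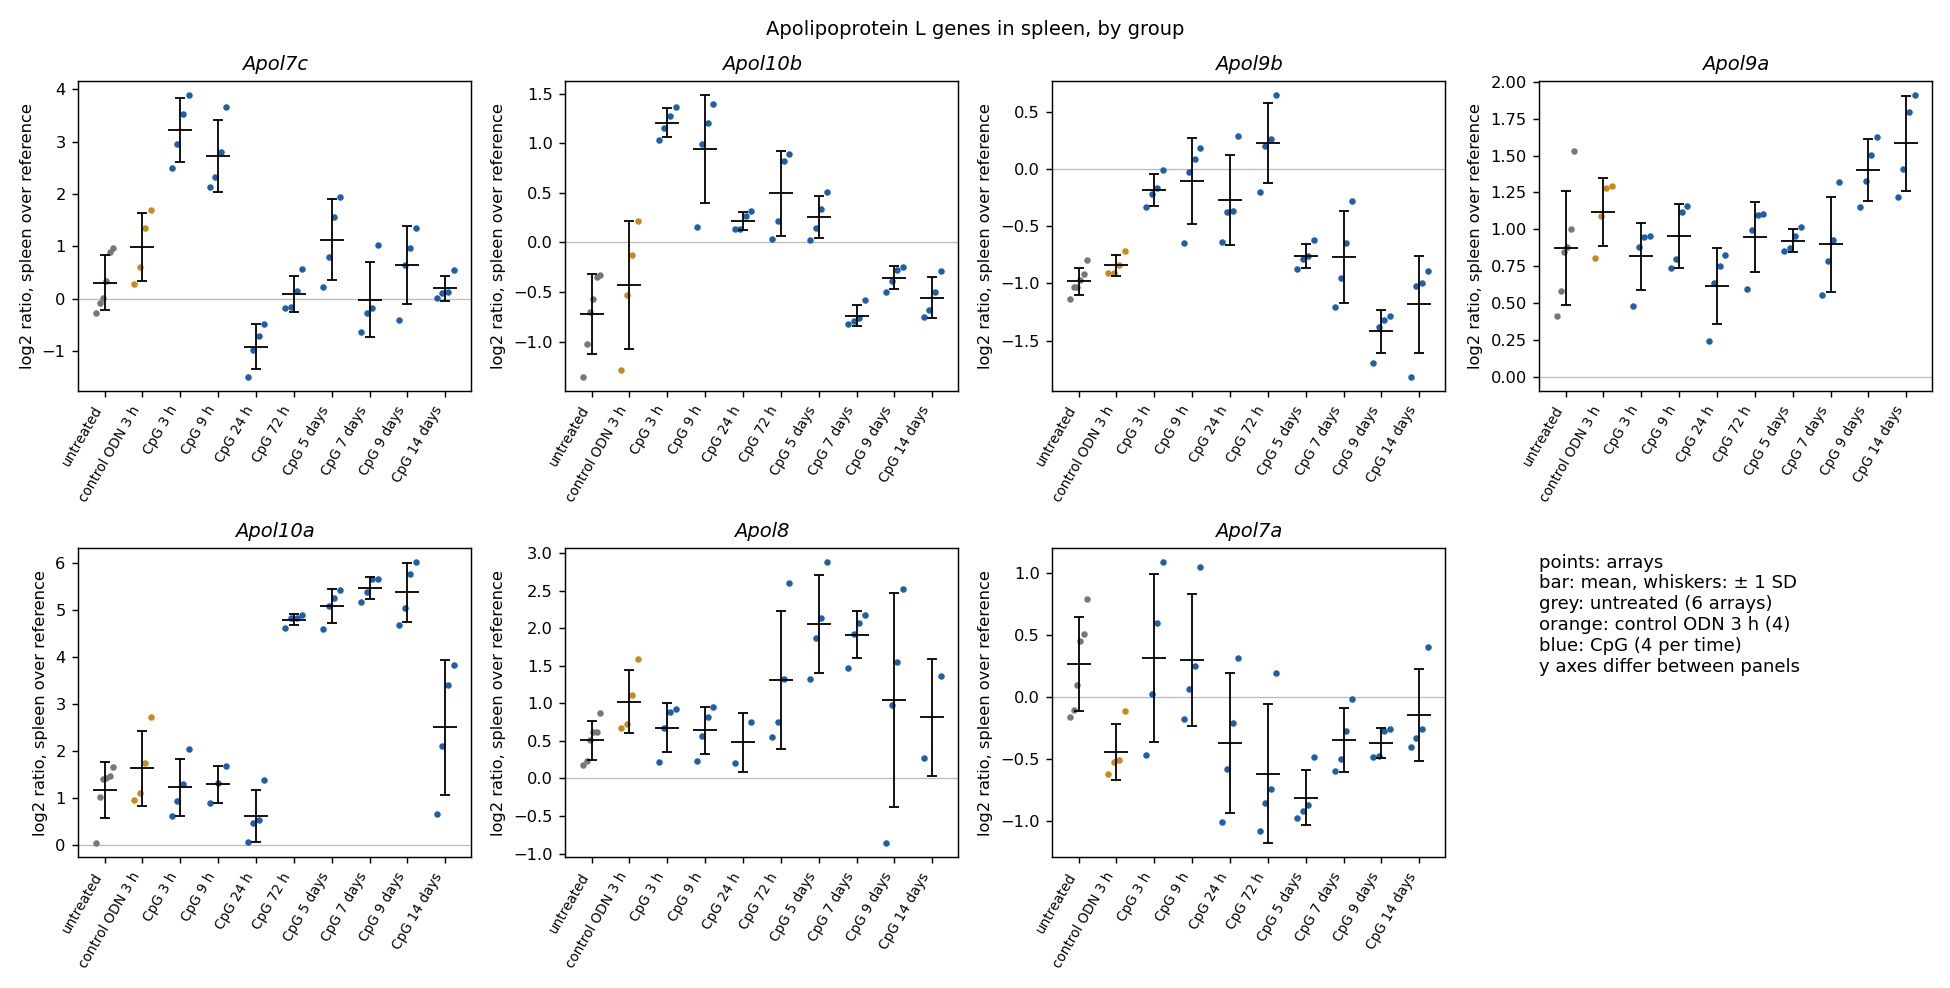
Log2 ratio of spleen over reference for each apolipoprotein L gene in the 10 groups. Points are arrays, bars are means and whiskers are ± 1 SD, with untreated in grey, control ODN in orange and CpG in blue, and the vertical scale differs between panels. Apol7c and Apol10b peak at 3 h and 9 h, whereas Apol10a lies at 4.59 or above on every array from 72 h to 9 days.

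At 3 h after CpG, 3 of 7 Apol genes were higher than in untreated spleens and 0 were lower, at an adjusted p below 0.05. Over all 15253 genes tested, 7.7% were higher and 3.93% lower. The same 3 genes had all CpG arrays above all untreated arrays, as had 8.28% of the genes with a value on every array, and 5.37% had all CpG arrays below. Tests are from limma, 1 fit of all 42 arrays, with Benjamini-Hochberg adjustment over all genes, and ± after a difference is the standard error.

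Apol7c had the largest early difference of the family. In untreated spleens its log2 ratio ran from -0.28 to 0.96, with a median of 0.18. The arrays of CpG 3 h read 2.96, 2.51, 3.53 and 3.89, and those of CpG 9 h read 2.13, 3.67, 2.80 and 2.32. The lowest of these 8 arrays was above every array of every other group. The 4 control ODN arrays read 1.69, 0.28, 1.35 and 0.61 and overlapped with untreated.

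The difference of Apol7c from untreated was 2.91 ± 0.36 at 3 h, or 7.54-fold (limma adjusted p = 5.88e-08), and ranked 48 of 15253 genes from the top. At 9 h it was 2.42 ± 0.36, or 5.36-fold (adjusted p = 3.85e-06). Against control ODN at 3 h it was 2.24 ± 0.39, or 4.72-fold (adjusted p = 5.63e-05). Apol7c thus stood above both untreated and control ODN at 3 h.

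At 24 h Apol7c had turned below untreated. Its arrays read -0.99, -0.48, -0.72 and -1.49, and 0 of the 4 overlapped with the 6 untreated arrays. The difference from untreated was -1.23 ± 0.36, or 2.34-fold lower (limma adjusted p = 0.0208), and that from 9 h was -3.65 ± 0.39, or 12.5-fold lower (adjusted p = 9.56e-08). The call against untreated was lost without untreated replicate 4 (adjusted p = 0.0504) or CpG 24 h replicate 4 (adjusted p = 0.0606). With runs as a fixed block, which rests on 1 untreated array, the difference from untreated was 0.17 (adjusted p = 0.951), while the fall from 9 h to 24 h stayed called in all 19 alternatives, at -3.85 to -3.34.

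Later Apol7c levels lay near untreated. The arrays read -0.16, 0.14, 0.56 and -0.17 at 72 h, then 1.95, 0.79, 1.56 and 0.21 at 5 days. They read -0.18, 1.02, -0.28 and -0.64 at 7 days, 0.65, -0.40, 0.96 and 1.35 at 9 days, and 0.01, 0.12, 0.13 and 0.55 at 14 days. All 5 late groups overlapped with untreated, and the differences from it ran from -0.33 at 7 days to 0.82 at 5 days.

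Markers of the type 1 conventional dendritic cell, in which Apol7c is known to act, were on average below untreated at 3 h and 9 h, when Apol7c was above, and at 24 h, when Apol7c was below. At 3 h, 5 of 9 measured markers were lower than in untreated spleens and 1 was higher, beside 3.93% and 7.7% of all genes. Among the lower markers, Xcr1, the chemokine receptor that defines the cell, differed by -0.88 ± 0.21 (limma adjusted p = 0.00252), and Naaa by -0.99 ± 0.20 (adjusted p = 0.000343). The mean log2 ratio of the 7 markers with a value on every array ran from 1.63 to 1.74 in untreated, 1.32 to 1.43 at 3 h, 0.38 to 0.84 at 9 h and 1.09 to 1.34 at 24 h. Their part in the Apol7c result was not tested.

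Apol10b also rose at 3 h and 9 h, by less than Apol7c, and at 24 h it was above untreated where Apol7c was below. Its untreated log2 ratios ran from -1.35 to -0.32, with a median of -0.64. The 3 h arrays read 1.04, 1.28, 1.37 and 1.16, the 9 h arrays 0.99, 1.21, 1.40 and 0.16, and the 24 h arrays 0.31, 0.13, 0.14 and 0.26. All 12 lay above every untreated array. The control ODN arrays spread widely, at 0.21, -0.13, -0.53 and -1.28, and overlapped with untreated.

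The difference of Apol10b from untreated was 1.93 ± 0.22 at 3 h, or 3.81-fold (limma adjusted p = 8.17e-09), and 1.66 ± 0.22 at 9 h (adjusted p = 3.49e-07). At 24 h it was 0.93 ± 0.22, or 1.91-fold (adjusted p = 0.00339). Against control ODN at 3 h it was 1.64 ± 0.24 (adjusted p = 2.47e-06). With runs as a fixed block the 24 h difference was 1.63 and no longer called (adjusted p = 0.165). The fall from 9 h to 24 h, -0.73 ± 0.24 (adjusted p = 0.0457), lost its call in 10 of 19 alternatives, with adjusted p from 0.0087 to 0.161.

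Apol10b stayed above untreated at 72 h and 5 days and was back near it at 7 days. The arrays read 0.83, 0.04, 0.90 and 0.22 at 72 h and 0.51, 0.34, 0.14 and 0.03 at 5 days. They read -0.79, -0.82, -0.76 and -0.58 at 7 days, -0.28, -0.39, -0.50 and -0.24 at 9 days, and -0.75, -0.50, -0.68 and -0.29 at 14 days. The 72 h and 5-day groups lay wholly above untreated, and the groups of days 7, 9 and 14 overlapped with it. Within the run that holds control ODN, the 72 h group differed from control ODN at 3 h by 0.93 ± 0.24 and overlapped with it.

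Apol9b, 1 of the near-identical Apol9 pair, had a smaller early rise than Apol7c and Apol10b at 3 h. Its untreated log2 ratios ran from -1.14 to -0.79, with a median of -0.999. The 3 h arrays read -0.17, -0.34, -0.01 and -0.22, the 9 h arrays 0.18, -0.02, 0.09 and -0.65, and the 24 h arrays -0.38, 0.29, -0.36 and -0.64. At each of these times all 4 arrays lay above every untreated array. The control ODN arrays, at -0.72, -0.84, -0.91 and -0.91, overlapped with untreated.

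The difference of Apol9b from untreated was 0.80 ± 0.18 at 3 h, or 1.74-fold (limma adjusted p = 0.00145), and 0.88 ± 0.18 at 9 h, or 1.84-fold (adjusted p = 0.000726). At 24 h it was 0.71 ± 0.18 (adjusted p = 0.00755), and against control ODN at 3 h it was 0.66 ± 0.20 (adjusted p = 0.0147). With runs as a fixed block these 3 differences from untreated were 0.68, 0.83 and 0.69, and none was called (adjusted p = 0.456, 0.627 and 0.548). The 24 h call was also lost without CpG 24 h replicate 2 (adjusted p = 0.0764).

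Apol9b was highest at 72 h. The arrays read 0.20, 0.26, 0.65 and -0.20 there, and -0.88, -0.62, -0.76 and -0.79 at 5 days, with no overlap between these groups. They read -0.95, -0.28, -0.65 and -1.21 at 7 days, -1.70, -1.38, -1.32 and -1.28 at 9 days, and -1.03, -0.999, -1.82 and -0.89 at 14 days. At 9 days every array lay below every untreated array.

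Apol9a did not take part in the early rise. Its log2 ratio ran from 0.41 to 1.53 in untreated spleens, with a median of 0.86. It read 0.95, 0.48, 0.88 and 0.95 at 3 h, 0.74, 0.80, 1.12 and 1.16 at 9 h, and 0.24, 0.82, 0.64 and 0.75 at 24 h. These groups overlapped with untreated, and the differences from it were -0.06, 0.08 and -0.26, with adjusted p of 0.895, 0.87 and 0.356.

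The unequal change of the Apol9 pair was tested on Apol9b minus Apol9a within each array. That value was -1.86 ± 0.46 (SD, n = 6) in untreated spleens and -0.998 ± 0.17 (SD, n = 4) at 3 h, higher by 0.86 (exact permutation test, 2-sided, p = 0.00952, the smallest it can give; adjusted p = 0.0475 over 5 tests). It was higher by 0.80 at 9 h (exact p = 0.0381, adjusted 0.0476) and by 0.97 at 24 h (exact p = 0.019, adjusted 0.0475). Against control ODN it was higher by 0.96 (exact p = 0.0286, the smallest possible there, adjusted 0.0476). Between control ODN and untreated it differed by -0.10 (exact p = 0.686). This test reuses the arrays and values on which limma had called Apol9b and not Apol9a. It is no separate support for those calls and takes no account of runs. Of the 6 untreated arrays, 5 lie in a run with no CpG array. With runs as a fixed block, Apol9a differed from untreated by 0.04 at 3 h, 0.28 at 9 h and 0.06 at 24 h, beside 0.68, 0.83 and 0.69 for Apol9b, and none of these was called.

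At 9 h, 3 of 7 Apol genes were called higher and 0 lower, beside 5.07% and 3.45% of all genes, and the same 3 lay wholly above untreated, beside 4.77% of genes. At 24 h, 2 of 6 tested were higher and 1 lower, beside 8.03% and 2.87%. The same 3 did not overlap with untreated, beside 5.8% of genes wholly above and 2.29% wholly below, and Apol8 was not tested because 2 of 4 arrays had no value. Between 3 h and 9 h, 0 of 7 differed by limma, with 0 at an unadjusted p below 0.05, beside 0.291% higher and 1.15% lower over all genes. Between 9 h and 24 h, 2 of 6 were lower and 0 higher, beside 3.31% and 6.39%.

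Control ODN addressed whether the early response followed the CpG sequence or the injection of any ODN. All 4 control ODN arrays lie in a run with no untreated and no CpG 3 h array, so in both comparisons with control ODN run and treatment cannot be told apart. Against untreated, 0 of 7 Apol genes were called by limma after control ODN, and 1, Apol7a, had an unadjusted p below 0.05. Over all genes 2.45% were higher and 1.07% lower. Apol7a differed by -0.70 ± 0.26 (adjusted p = 0.0996), and without control ODN 3 h replicate 4 by -0.81 (adjusted p = 0.0462). CpG against control ODN at 3 h called Apol7c, Apol10b and Apol9b higher and 0 lower, beside 9.24% and 11.5% of all genes. The comparisons with untreated share its 6 arrays, and both comparisons of CpG 3 h share those 4 arrays.

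**Figure D2:**
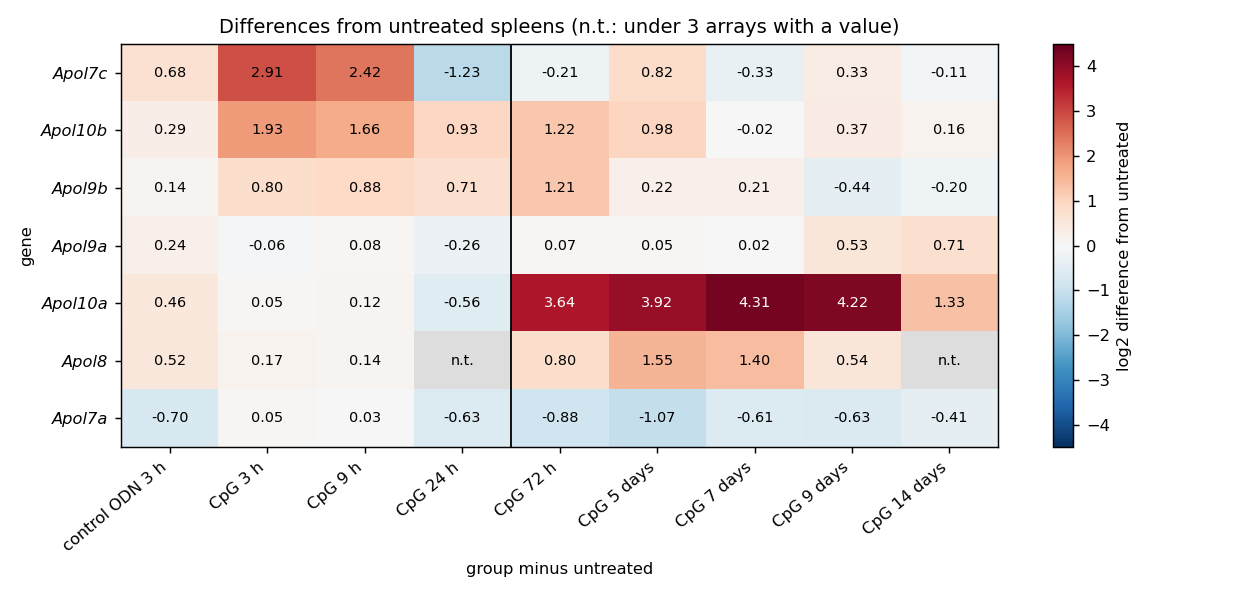
Log2 difference of each group from untreated, as fitted, for the 7 genes, with red for higher and blue for lower. The vertical line separates the tested early groups from the late groups, which are a description, and n.t. marks Apol8 at 24 h and 14 days, where 2 arrays had a value. The early block is led by Apol7c at 2.91 and the late block by Apol10a at 4.31.

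The genes that interferons are known to induce were raised at the same early times. Of 24 measured type I interferon-stimulated genes, 23 were higher at 3 h, 22 at 9 h, 20 at 24 h and 0 after control ODN by limma. Over all genes 7.7%, 5.07%, 8.03% and 2.45% were higher in the same order. In these comparisons 0 of the list were lower, beside 3.93%, 3.45%, 2.87% and 1.07% of all genes. After control ODN 5 of the list had an unadjusted p below 0.05, for which the share over all genes is not given here. The antiviral genes Ifit2 and Ifit3 led at 3 h, with differences of 4.57 ± 0.21 and 4.44 ± 0.28 (limma adjusted p = 2.08e-19 and 7.75e-16). The median difference of the list at 3 h was 2.23, against -0.02 over all genes, and that of the 7 Apol genes was 0.17.

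Of 24 interferon-gamma GTPases and antigen processing genes, 20 were higher at 3 h, 21 at 9 h and 20 at 24 h. Over all genes 7.7%, 5.07% and 8.03% were higher at these times. After control ODN 0 of 23 were called by limma, and 5 had an unadjusted p below 0.05. Those higher at 3 h included the chemokine Cxcl10, at 4.46 ± 0.30 (limma adjusted p = 5.57e-15), and Gbp2b, at 3.55 ± 0.27 (adjusted p = 3.55e-13). Of 21 interferon ligands, receptors and signalling factors, 9 were higher at 3 h, including Stat2 at 2.03 ± 0.15 (adjusted p = 1.08e-13), and 1 was higher after control ODN, the TLR adaptor gene Myd88 at 1.01 ± 0.19 (adjusted p = 0.00723). At 3 h, where 7.7% of all genes were higher and 3.93% lower, 2 of 20 other apolipoprotein and lipid transport genes were higher and 1 lower. They were the endothelial lipase gene Lipg at 3.42 ± 0.35 (adjusted p = 9.24e-10), Apod at 0.51 ± 0.17 (adjusted p = 0.0366), and the lipoprotein lipase gene Lpl at -0.57 ± 0.16 (adjusted p = 0.00945). After control ODN, where 2.45% of all genes were higher, 2 of these 20 were higher by limma. The 2 were Apoe at 1.38 ± 0.27 (adjusted p = 0.0079) and Clu at 1.11 ± 0.28 (adjusted p = 0.0297).

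Genes with a course over the 10 groups most like that of Apol10b were Gbp5 (r = 0.99 over the 10 group means), Cxcl9 (0.98), Trafd1 (0.98), Tnfsf10 (0.98) and Mgat4c (0.97). Gbp5 and Cxcl9 belong to the interferon-gamma list, and Tnfsf10 encodes the death ligand TRAIL. Gbp5 differed from untreated by 2.16 ± 0.21 at 3 h, 1.43 at 72 h and 0.08 at 7 days, as Apol10b did by 1.93, 1.22 and -0.02. The genes most like Apol7c were Lingo1 (0.93), 1700029I15Rik (0.90), Ly75 (0.89), Cst9 (0.89) and Arhgap22 (0.89). Ly75 encodes DEC-205, an uptake receptor of dendritic cells, and differed from untreated by 1.06 ± 0.16 at 3 h. For Apol9b they were Vwa5a (0.93), H2-Bl (0.92), H2-M11 (0.91), Calhm6 (0.91) and Rcn1 (0.90). These correlations are descriptions over group means that share arrays and reference, and carry no test.

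Apol10a was the late gene of the family. Its log2 ratio ran from 0.03 to 1.67 in untreated spleens, with a median of 1.41. It read 1.10, 0.96, 1.75 and 2.71 after control ODN, 0.94, 0.62, 2.04 and 1.29 at 3 h, and 0.53, 1.38, 0.05 and 0.47 at 24 h. At 9 h, 3 arrays had a value, at 1.31, 0.89 and 1.68. All these groups overlapped with untreated, and the differences at 3 h, 9 h and 24 h were 0.05, 0.12 and -0.56, with adjusted p of 0.962, 0.926 and 0.406.

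From 72 h on the arrays stood far above these levels. They read 4.85, 4.90, 4.63 and 4.83 at 72 h, 4.59, 5.25, 5.43 and 5.09 at 5 days, and 5.18, 5.67, 5.39 and 5.68 at 7 days. They read 5.05, 4.68, 6.03 and 5.77 at 9 days and 3.83, 0.66, 3.41 and 2.10 at 14 days. Among the first 4 of these groups, each overlapped with its neighbours in order of level. None of the 4 overlapped with 14 days, control ODN, untreated or an earlier CpG group. At 14 days the arrays were widely spread and overlapped with untreated, through replicate 2 at 0.66.

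The difference of Apol10a from untreated, given with no test because it chose the family, was 3.64 ± 0.40 at 72 h, or 12.4-fold. It was 3.92 ± 0.40 at 5 days (15.2-fold), 4.31 ± 0.40 at 7 days (19.9-fold) and 4.22 ± 0.40 at 9 days (18.6-fold). Among all genes with enough values it ranked 2 of 15161 at 72 h, 1 of 15006 at 5 days, 1 of 15200 at 7 days and 4 of 15142 at 9 days. Between 24 h and 72 h it differed by 4.20, or 18.3-fold. Within the run that holds control ODN, the difference from control ODN at 3 h was 3.17 at 72 h, 3.85 at 7 days and 0.87 at 14 days. In control ODN 1 of the Apol10a features had a value on 1 of 4 arrays, so these differences mix the features unequally.

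At 14 days Apol10a differed from untreated by 1.33 ± 0.40 and from 9 days by -2.88 ± 0.44. Leaving out 1 array at a time gave 0.89 to 1.95 for the 14-day difference. Without the arrays with over 1000 gaps, 2 of them at 14 days, it was 2.23. Untreated arrays and late CpG arrays lie in different runs, so for these differences run and treatment cannot be told apart.

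**Figure D3:**
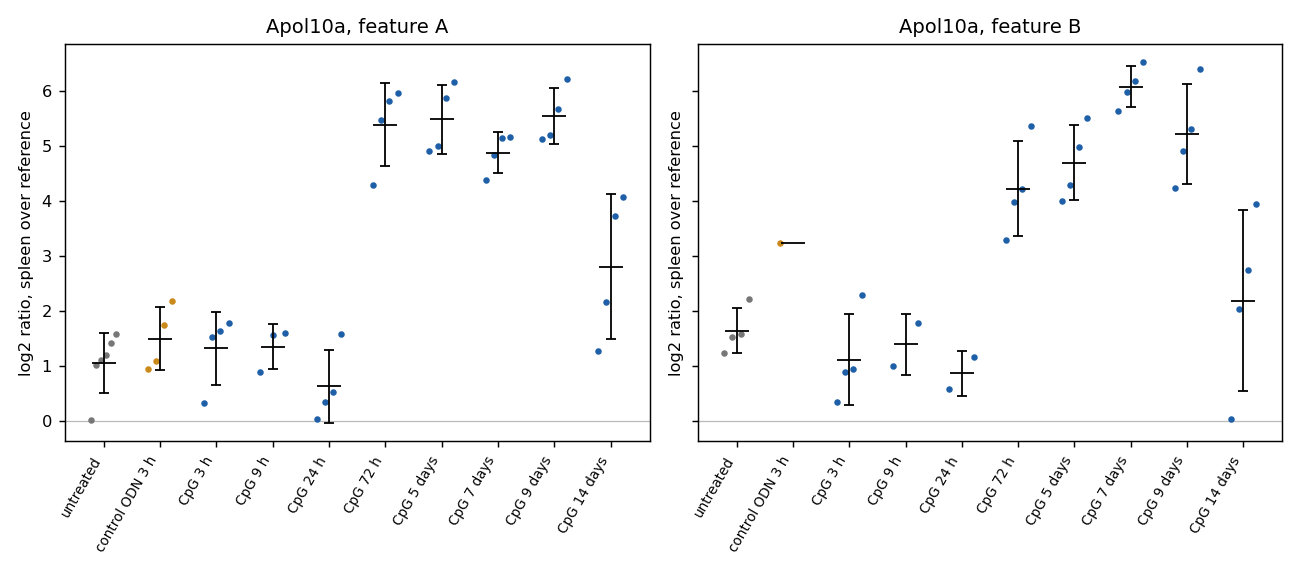
Log2 ratio of spleen over reference for each of the Apol10a features, called A and B, in the 10 groups. Points are arrays, bars are means and whiskers are ± 1 SD, and groups with 1 value have no whisker. In both panels the groups from 72 h to 9 days stand above every untreated array, while B is missing on arrays of low groups only.

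The Apol10a features, called A and B, moved up together at late times and differed in size. Feature A had a value on 41 of 42 arrays and feature B on 33, and all arrays without B belonged to groups where Apol10a was low. The difference from untreated at 72 h was 4.33 for A and 2.57 for B. From 72 h to 7 days A differed by -0.51 and B by 1.86, so the order of these groups depended on the feature. At 14 days B was 0.55 above untreated. At 72 h the gene's SD over arrays was 0.12, whereas the SDs of A and B were 0.76 and 0.86, since the features deviated in opposite directions on the same arrays.

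The genes with a course most like that of Apol10a were Ube2c (r = 0.985 over 10 group means), Metap2 (0.98), Atg4a (0.98), Mff (0.98) and Kif18b (0.98). Ube2c and Kif18b act in mitosis, Metap2 removes the initiator methionine, Atg4a acts in autophagy and Mff in mitochondrial fission. Their differences from untreated at 7 days were smaller than the 4.31 of Apol10a, at 1.12 ± 0.28 for Ube2c, 1.11 ± 0.19 for Metap2, 1.67 ± 0.31 for Atg4a, 0.75 ± 0.15 for Mff and 1.67 ± 0.28 for Kif18b. Over single arrays r ran from 0.83 for Ube2c to 0.922 for Metap2.

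**Figure D4:**
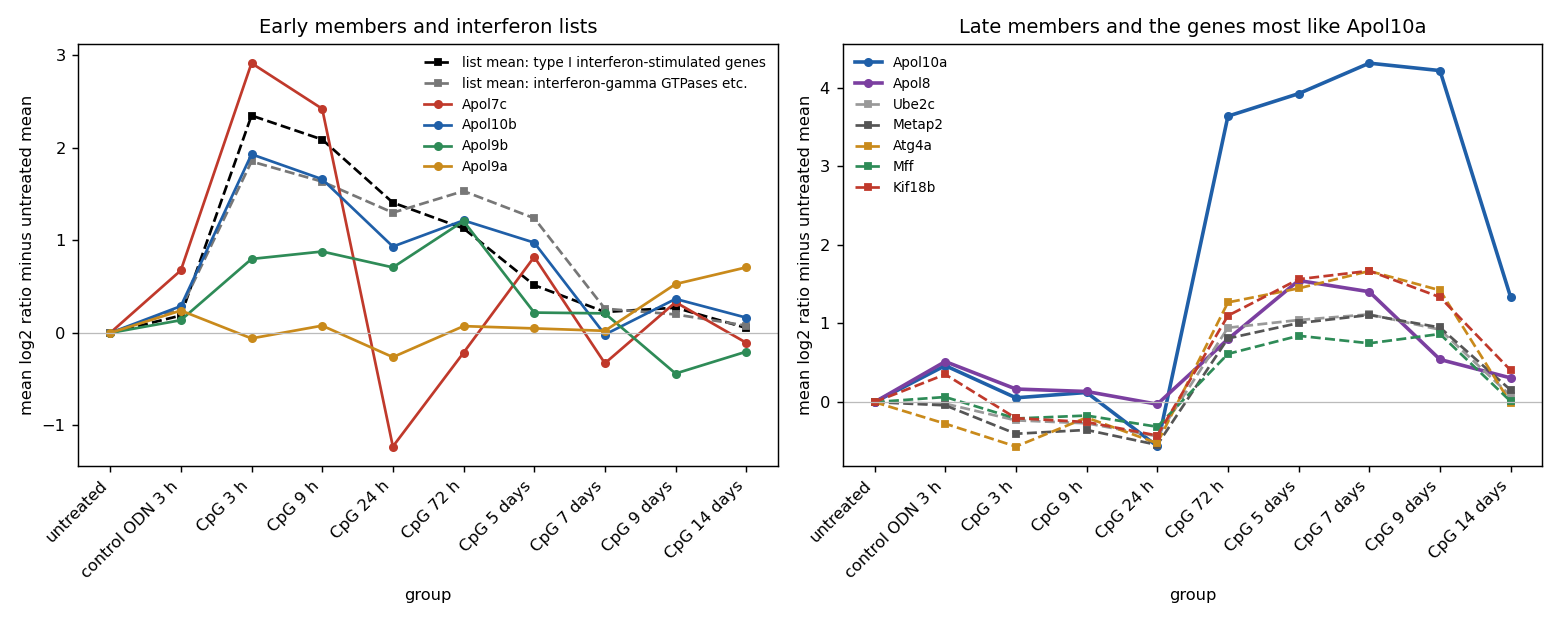
Mean log2 ratio of each group minus the untreated mean. The left panel shows Apol7c, Apol10b, Apol9b and Apol9a with the means of 2 interferon lists (dashed), and the right panel shows Apol10a and Apol8 with the 5 genes most like Apol10a (dashed). Apol10b stays close to the interferon-gamma list, Apol7c drops below 0 at 24 h, and Apol10a exceeds its look-alikes from 72 h to 9 days.

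Means of several cell marker lists also differed from untreated at the late times, across runs. The part of these cells in the Apol10a levels was not tested. Each mean is over the markers with a value on every array. The mean log2 ratio of 12 neutrophil and precursor markers ran from 1.74 to 2.51 on untreated arrays, 2.18 to 3.57 at 72 h, 2.87 to 3.24 at 7 days, 4.01 to 4.43 at 9 days and 3.75 to 4.15 at 14 days. The mean over 7 markers of type 1 conventional dendritic cells ran from 1.63 to 1.74 on untreated arrays, 1.59 to 1.96 at 72 h and 1.81 to 2.02 at 5 days. It ran from 1.77 to 2.06 at 7 days, 1.68 to 2.23 at 9 days and 1.48 to 1.67 at 14 days. From 7 to 14 days 3 of the 8 list genes tested fell and 0 rose, beside 10.8% lower and 10.8% higher over all genes. Among the 3, the uptake receptor gene Clec9a fell by 1.31 on the log2 scale (SE 0.21, limma adjusted p = 4.97e-05). The integrin gene Itgae fell by 1.32 (SE 0.19, adjusted p = 1.65e-05). For the other marker lists in this paragraph only means are given, so calls cannot be compared between lists. The mean over 8 T cell markers ran from 1.90 to 2.37 on untreated arrays, 1.26 to 1.64 at 72 h, 1.36 to 1.49 at 7 days and 1.87 to 2.33 at 14 days. The mean over 7 erythroid markers ran from 2.84 to 3.10 untreated, 2.88 to 3.76 at 72 h and 2.95 to 3.17 at 7 days. Control ODN 3 h, in the run of 72 h, 7 days and 14 days, had neutrophil means of 2.30 to 3.67 and erythroid means of 3.24 to 3.83. Its dendritic cell means ran from 1.51 to 2.35 and its T cell means from 1.98 to 2.36. Of these, the neutrophil, erythroid and dendritic cell means overlapped with those at 72 h and the T cell means did not. The mean over 6 acinar markers of the pancreas, which lies next to the spleen, varied from 0.23 to 6.04 between arrays.

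Apol8, like Apol10a, had its highest means at late times, on a smaller scale, with r = 0.85 between their 10 group means. The Apol8 means at 24 h and 14 days, which enter this r, rest on 2 arrays each. Apol8 ran from 0.17 to 0.88 untreated, with a median of 0.57. It read 0.55, 0.76, 2.60 and 1.33 at 72 h, 1.32, 2.89, 2.14 and 1.87 at 5 days, and 2.07, 1.92, 2.18 and 1.47 at 7 days. The 5-day and 7-day groups lay above all untreated arrays, by 1.55 ± 0.40 and 1.40 ± 0.40, across runs. Within the run that holds control ODN, Apol8 differed from control ODN at 3 h by 0.29 ± 0.44 at 72 h and 0.89 ± 0.44 at 7 days. Both groups overlapped with control ODN. At 9 days the arrays were split, at 0.98, -0.86, 1.56 and 2.52, with a mean of 1.05 beside 1.02 after control ODN. At 3 h, 9 h and after control ODN it differed from untreated by 0.17, 0.14 and 0.52, with adjusted p of 0.87, 0.905 and 0.449.

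The genes most like Apol8 were Adgrf4, Tuba1c, Cdca4, Phf10 and Cenpi, each with r of 0.96 or 0.97. Cenpi is a kinetochore protein and Tuba1c a tubulin. Those most like Apol7a were Cntn3 (0.95), S100a14 (0.93), Syt12 (0.93), Zfp36l1 (0.91) and Krt34 (0.91).

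Apol7a had its lowest group mean at 5 days. It ran from -0.16 to 0.78 untreated, with a median of 0.27. The group means were 0.31 at 3 h and 0.30 at 9 h, and then -0.37 at 24 h, -0.62 at 72 h, -0.81 at 5 days, -0.34 at 7 days, -0.37 at 9 days and -0.15 at 14 days. The 5-day and 9-day groups lay below every untreated array. At 24 h the difference of -0.63 ± 0.26 was not called (adjusted p = 0.111). CpG at 3 h differed from control ODN by 0.75 ± 0.28 (limma adjusted p = 0.055). This difference was called in 5 of 18 alternatives, the replicate block among them, with limma adjusted p from 0.0134 to 0.0483, and not in the others. The CpG 3 h arrays lie in 2 runs and read -0.46 and 0.03 in 1 of them and 0.59 and 1.09 in the other. The control ODN mean was -0.44. In the run of control ODN, the late differences from it were -0.18 at 72 h, 0.10 at 7 days and 0.29 at 14 days, each with overlap.

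Differences among late CpG groups were tested within the run that holds 72 h, 7 days and 14 days, for each Apol gene but Apol10a, and for Apol8 from 72 h to 7 days only, since 2 arrays had no value at 14 days. From 72 h to 7 days, 2 of 6 genes fell and 0 rose, beside 2.58% and 1.08% of all genes. Apol10b fell by 1.23 on the log2 scale (SE 0.24, limma adjusted p = 0.00113), and Apol9b differed by -0.997 ± 0.20 (adjusted p = 0.00154). Over the same interval 16 of 24 interferon-gamma list genes and 13 of 24 type I interferon-stimulated genes fell, and 0 of either rose.

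From 72 h to 14 days, 2 of 5 genes fell and 1 rose, beside 15.5% and 13.6% of all genes. Apol9b differed by -1.41 ± 0.20 (limma adjusted p = 2.58e-06) and Apol10b by -1.05 ± 0.24 (adjusted p = 0.00121). Apol9a rose, with arrays at 1.10, 1.00, 1.10 and 0.60 at 72 h and 1.79, 1.91, 1.22 and 1.41 at 14 days, a difference of 0.635 ± 0.19 (adjusted p = 0.0108). From 7 days, where it read 0.93, 1.32, 0.79 and 0.55, it was higher by 0.69 ± 0.19 at 14 days (adjusted p = 0.00878), 1 of 5 genes beside 10.8% of all genes. Without CpG 14 days replicate 2 these Apol9a calls were lost (adjusted p = 0.0573 and 0.0532), as they were without the arrays with over 1000 gaps (0.0914 and 0.108).

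Over the 10 group means the Apol9 pair ran opposite ways, with r = -0.66, while Apol9b and Apol10b had r = 0.77 and Apol7c and Apol10b had r = 0.68. The mean of the 21 interferon-gamma list genes with a value on every array was 1.71 ± 0.08 (SD, n = 6) untreated, 3.24 ± 0.40 at 72 h, 2.95 ± 0.33 at 5 days and 1.97 ± 0.15 at 7 days (n = 4 each). Apol10b was at -0.72, 0.49, 0.25 and -0.74 in those groups. Relative to untreated, the 72 h arrays lay wholly above for 3 of 7 Apol genes and wholly below for 0, beside 7.32% and 4.46% of genes. At 5 days these were 3 and 1, beside 13.6% and 9.54%, and at 7 days 2 and 0, beside 8.73% and 7.57%. At 9 days they were 1 and 2, beside 7.52% and 5.72%, and at 14 days 0 and 0 of 6, beside 4.11% and 3.52%. Nothing is read from these late counts, since Apol10a is among them and its late level chose the family.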

How the data were processed

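The authors deposited normalized log2 ratios of spleen over reference for each array feature made from 2-colour arrays. Within-array normalization, spot filter and log base were not given in the sources used here, and base 2 follows from the value range. The labels give Cy5 for spleen and Cy3 for reference. Features were named through the platform annotation, and features with 1 symbol were averaged per gene. A limma fit (version 3.58.1, R 4.3.3) of all 42 arrays gave the differences, with 1 coefficient per group, 2-sided, for genes with at least 3 values in each group. The step was tested on simulated data. Late differences from untreated, and Apol10a at late times, carry no test. All Apol genes are named. Genes most alike are the 5 with the highest r over group means among genes on all arrays whose means range over at least 1. From each list, called genes with the largest differences are named. The members and lists were chosen with earlier results of these data known. The number of arrays limits the precision; spot signal was not analysed here. Alternatives changed scaling, features, spread, weights, blocks and arrays. Promoters came from RefSeq (GRCm38.p6), searched in python 3.11.15.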

Additional observations from a re-analysis of the deposited data

Results flagged for a closer look

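Apol9a in CpG 3 h replicate 2, at 0.482, and Apol9b in CpG 14 days replicate 3, at -1.816, stood apart from the other arrays of their groups. They are 2 of 67 groups checked, and chance alone gives about 1 in 20. Differences between CpG times that passed their own test were those of Apol7c and Apol10b from 9 h to 24 h (-3.65 and -0.73) and of Apol10b and Apol9b from 72 h to 7 days (-1.23 and -0.997). The others were Apol10b, Apol9b and Apol9a from 72 h to 14 days (-1.05, -1.41 and 0.635) and Apol9a from 7 to 14 days (0.69).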

How the results depend on the processing

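Of the 20 called differences of Apol genes, under 389 alternatives in all, 367 values kept direction and call, 21 lost the call and 1 changed direction, and the cause of these changes was not tested. The most consequential alternative was runs as a fixed block, which rests on 1 untreated array and calls 381 of 13772 genes at 3 h, against 1627 of the same genes without it, 129 against 1077 at 9 h and 84 against 1390 at 24 h. From 9 h to 24 h it calls 713 against 1129, and from 3 h to 9 h 33 against 168. Under it 0 of 5 Apol genes were called at 24 h, and the differences there were 0.86 for Apol7a, 0.17 for Apol7c and 0.060 for Apol9a. It also gave 0.038 for Apol9a at 3 h and 0.52 for Apol7a from 3 h to 9 h, where runs as a random block gave 0.0061. From 9 h to 24 h, 1 Apol gene was called under this block, with single features, with the arrays of the 2 groups only, and without arrays over 1000 gaps. From 7 to 14 days, 2 were called with array weights and 0 without arrays over 1000 gaps.

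Small differences changed sign. Apol10a at 3 h was -0.53 with feature B alone, -0.045 with quantile normalization and -0.17 without arrays over 1000 gaps. Without those arrays Apol9a at 3 h was 0.071, Apol8 at 9 h was -0.0335, Apol7a from 3 h to 9 h was 0.062 and Apol7c from 72 h to 7 days was 0.043. Apol7a at 9 h was -0.0012 with quantile normalization and -0.087 with array weights, which gave -0.19 for Apol10a from 3 h to 9 h. Feature A alone gave -0.51 for Apol10a from 72 h to 7 days. The late Apol10a difference from untreated was 4.33 with feature A and 2.57 with feature B at 72 h, 3.05 with B at 5 days, 0.55 with B at 14 days and 2.23 at 14 days without arrays over 1000 gaps.

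Replicate numbers did not pair the arrays. Correlations of the deviations of same-numbered arrays ran from -0.37 to 0.52, and every one was above 0.1 in 1 of 45 pairs of groups. With the replicate block, 3 Apol genes were called at 3 h, 9 h and 24 h, 0 after control ODN, 4 between CpG and control ODN at 3 h, 0 from 3 h to 9 h, 2 from 9 h to 24 h, 2 from 72 h to 7 days, 3 from 72 h to 14 days and 1 from 7 to 14 days. The replicate block turned Apol10a to -0.27 at 3 h and -0.23 at 9 h and Apol9a to 0.0305 at 3 h.

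Leaving out 1 array at a time gave 2 to 3 calls at 24 h, 0 to 1 after control ODN, 1 to 3 from 9 h to 24 h, 2 to 4 from 72 h to 14 days and 0 to 1 from 7 to 14 days. Against untreated at 3 h it gave -0.22 to 0.26 for Apol10a, -0.21 to 0.31 for Apol7a and -0.15 to 0.071 for Apol9a. At 9 h these ranges were -0.105 to 0.22, -0.22 to 0.19 and -0.015 to 0.21. From 3 h to 9 h they were -0.13 to 0.34 for Apol10a, -0.27 to 0.24 for Apol7a, -0.18 to 0.105 for Apol8 and -0.014 to 0.26 for Apol9b. From 72 h to 7 days they were -0.46 to 0.093 for Apol7c and -0.19 to 0.064 for Apol9a, and from 72 h to 14 days -0.0085 to 0.26 for Apol7c. Late differences from untreated gave -0.020 to 0.20 for Apol9a at 72 h, -0.0445 to 0.18 at 5 days and -0.12 to 0.15 at 7 days. They gave -0.14 to 0.0615 for Apol10b at 7 days, and -0.22 to 0.024 for Apol7c and -0.30 to 0.0082 for Apol9b at 14 days. Signal over background was not analysed here, so its limit on low features is not known.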
